A study of Mus musculus with 2 samples.

Results

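Subcluster 7 of the oligodendrocytes was a group of 863 brainstem nuclei, of which 730 came from the HET library and 133 from the WT library. Its members were the nuclei that the deposited annotation named oligodendrocytes and placed in cluster 7 at a clustering resolution of 0.8. They made up 863 of the 4149 oligodendrocyte nuclei and of the 18281 nuclei in all. The other oligodendrocyte nuclei lay almost wholly in subcluster 2, with 768 WT and 789 HET nuclei, in subcluster 6, with 39 WT and 827 HET nuclei, and in subcluster 8, with 825 WT and 35 HET nuclei.

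Oligodendrocytes are the glial cells that wrap axons of the central nervous system in myelin, the lipid-rich sheath that speeds conduction and supports the axon. They arise from precursors that carry *Pdgfra* and *Cspg4*, pass through a short newly formed stage marked by genes such as *Gpr17*, *Enpp6*, *Tcf7l2* and *Itpr2*, and then switch on *Mog*, *Mag* and the other myelin genes. Mature cells are not uniform, and genes such as *Opalin*, *Klk6*, *Anln*, *Hapln2* and *Il33* are used to tell mature states apart.

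The data were single-nucleus RNA-seq counts from the brainstem of 1 female mouse of each genotype at postnatal day 41. The WT animal had the genotype label wildtype and came from the same litters as the HET animals. The HET animal had the label Scn1a knock-in, written as Scn1aA1783V/WT, and carried 1 missense copy of *Scn1a*, a voltage-gated sodium channel gene, which was described as a loss of channel function. Both were on the C57Bl6 background, from matings of a Sox2-Cre female with a male bearing the floxed *Scn1a* allele, and neither was treated. Sox2-Cre acts throughout the embryo, so the allele was not limited to neurons or to glia. HET mice of this line have spontaneous seizures, and whether a seizure came before collection was not a criterion. With 1 library per genotype, genotype, animal and library cannot be told apart, and no test between genotypes was possible.

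The WT library held 9259 nuclei with 70301390 UMIs (unique molecular identifiers, 1 per captured RNA molecule), and the HET library held 9022 nuclei with 66176778 UMIs. Subcluster 7 held 909305 UMIs in WT and 2997821 in HET. Levels are given as CPM, the UMIs of a gene summed over the nuclei of a group divided by all UMIs of that group and scaled to 1000000. Differences are log2 ratios of CPM, and the interval after a value is the exact 95% interval for counting error alone. UMIs within a nucleus and nuclei within an animal share their source, so these intervals say nothing of the spread between animals. Because the clusters were made from these same genes, the differences between subclusters are a description and were not tested.

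The label was checked against *Mog* and *Mag*, which encode glycoproteins of the myelin surface. In subcluster 7 *Mog* stood at 1046 CPM (WT) and 872 CPM (HET), and *Mag* at 1164 and 1075 CPM. Both levels were close to those of the other oligodendrocyte nuclei of the same library, with log2 ratios of 0.10 (−0.00 to 0.20) in WT and 0.00 (−0.07 to 0.07) in HET for *Mog*, and of 0.07 (−0.03 to 0.16) and 0.04 (−0.03 to 0.10) for *Mag*. At least 1 *Mog* UMI was found in 97.7% (93.5 to 99.5) of WT and 93.6% (91.5 to 95.2) of HET nuclei of subcluster 7. Free RNA sets a background for such shares, which was 19.8% in WT and 19.9% in HET neurons at median depths of 7751 and 8391 UMIs, against 4627 and 3371 UMIs in subcluster 7. Thinned to an expected 1000 UMIs per nucleus, the shares were 65.7% and 57.5% in subcluster 7 and 3.29% and 3.17% in neurons. The independent reference label also read oligodendrocyte in 133 of 133 WT and 726 of 730 HET nuclei, with 3 neurons and 1 astrocyte among the rest. The label therefore held in both libraries by these measures.

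Nuclei that the authors called doublets had been removed before deposit. The doublet score that remained was higher in subcluster 7 than in the other oligodendrocyte nuclei, with medians of 0.182 against 0.100 in WT and 0.0760 against 0.0418 in HET. Depth was also higher, since the other nuclei had medians of 2632 UMIs in WT and 2578 in HET. A few very deep nuclei weighed heavily on the WT sums. The 17 WT nuclei over 10000 UMIs held 38.0% of the WT UMIs of subcluster 7, whereas the 18 such HET nuclei held 9.75%. Markers of other cell types were low but present. The summed level of 17 neuron genes was 643 CPM in WT and 879 CPM in HET. That of 12 astrocyte genes was 399 and 329 CPM, with every gene detected in both. The 13 microglia genes summed to 201 and 145 CPM and the 15 vascular genes to 124 and 60.4 CPM, again with every gene detected. The 10 ependymal and choroid plexus genes summed to 422 and 149 CPM, of which *Ttr* gave 348 and 71.4 CPM, with *Kl* and *Clic6* at 0 in HET. The 8 Schwann cell genes summed to 39.6 CPM in WT and 45.7 CPM in HET, with 3 and 5 of them detected. Among them *Prx*, a gene of peripheral myelin, was at 0 in both libraries. The libraries shared 23 cell barcodes, of which 2 lay in subcluster 7 in either library and 0 in both.

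The share of the subcluster differed between the libraries. In WT it took 7.53% (6.34 to 8.86) of the oligodendrocyte nuclei, and in HET it took 30.6% (28.8 to 32.5). As a share of all nuclei the values were 1.44% (1.20 to 1.70) and 8.09% (7.54 to 8.67). Among oligodendrocyte nuclei of 3000 to 6000 UMIs alone, the shares were 13.0% in WT and 46.7% in HET. The exact binomial intervals did not overlap, but they cover counting error only. At a finer deposited resolution of 1.1, 188 of the 863 nuclei formed a cluster of their own, and these are called the smaller part here, with the other 675 as the larger part. This split was made after the values had been seen. The smaller part stayed together at a resolution of 1.3, in a cluster of 191 nuclei, and at 1.5 it lay within a cluster of 649. It held 49 WT oligodendrocyte nuclei, or 2.77% (2.06 to 3.65), and 139 HET ones, or 5.84% (4.93 to 6.85). The larger part held 4.75% (3.81 to 5.85) and 24.8% (23.1 to 26.6).

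**Figure D1:**
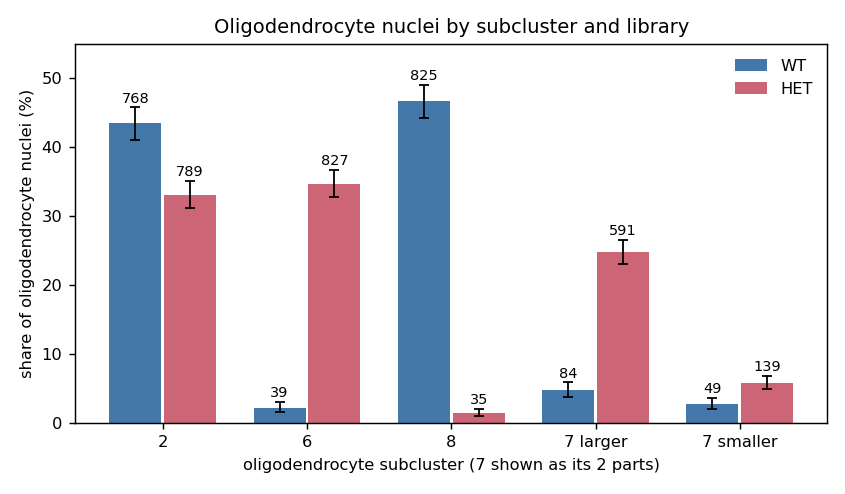
Bars give the share of all oligodendrocyte nuclei of a library, in percent, that lay in subclusters 2, 6 and 8 and in the larger and smaller parts of subcluster 7, in WT (blue) and HET (red), with exact 95% binomial intervals and the number of nuclei above each bar. The larger part of 7 held 84 WT and 591 HET nuclei, while subcluster 6 held 39 and 827 and subcluster 8 held 825 and 35.

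The larger part was also counted together with subclusters 6 and 8. The larger part with subclusters 6 and 8 held 948 WT nuclei, or 53.7% (51.3 to 56.0) of the WT oligodendrocytes, and 1453 HET nuclei, or 61.0% (59.0 to 63.0). Within that sum the larger part took 8.86% (7.13 to 10.9) in WT and 40.7% (38.1 to 43.3) in HET. A second clustering in the deposited annotation did not keep subcluster 7 as 1 group. It spread the nuclei over its clusters 5, 8, 11 and 12, with 3, 32, 43 and 55 WT nuclei and 92, 357, 82 and 199 HET nuclei.

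The first question was how subcluster 7 differed from the other oligodendrocytes, and it was asked within each library so that the difference between libraries did not enter. Subcluster 7 had more RNA of *Opalin*, which encodes a membrane protein of the myelin paranodal loops, of the adhesion molecule gene *Kirrel3*, of *Synpr*, which encodes the vesicle protein synaptoporin, and of the matrix glycoprotein gene *Tnr*. It had less of *Klk6*, which encodes a secreted serine protease, of *Anln*, whose product organises septins in mature myelin, and of *Hmcn1*, which encodes the matrix protein hemicentin. In HET, 112 of 8401 genes with at least 100 UMIs in both sides together (1.33%) were at least 2-fold higher and 146 (1.74%) at least 2-fold lower. In WT, 157 of 7602 genes (2.07%) were at least 2-fold higher and 321 (4.22%) at least 2-fold lower. The median over all these genes was −0.07 in HET and −0.08 in WT. Against subcluster 2 alone, the HET counts were 264 higher and 279 lower of 7142 genes.

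**Figure D2:**
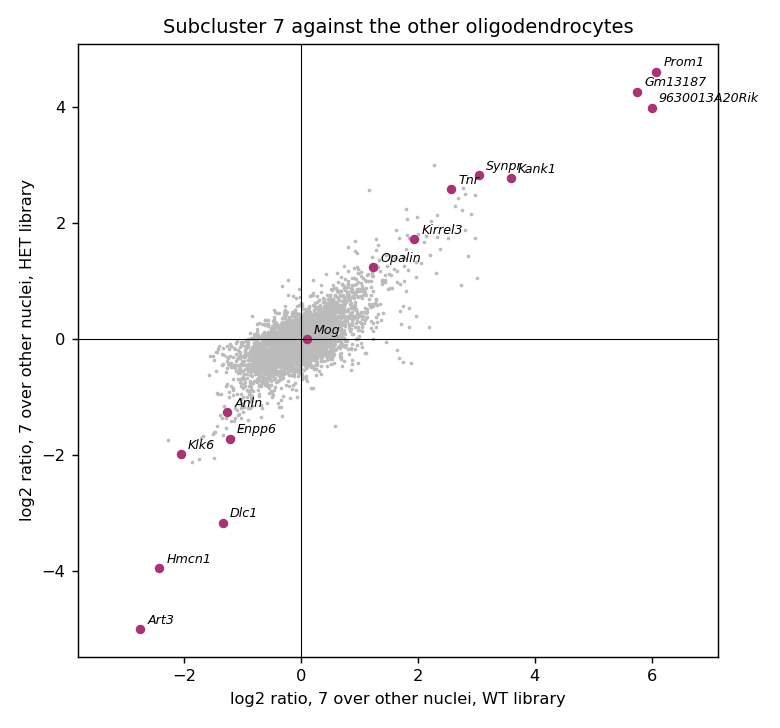
Each point is a gene, with its log2 ratio of CPM in subcluster 7 over the other oligodendrocyte nuclei within the WT library on the horizontal axis and within the HET library on the vertical axis, for genes with at least 100 UMIs in subcluster 7 and for the named genes (purple). *Prom1*, *Gm13187* and *9630013A20Rik* lie at the upper right and *Art3*, *Hmcn1* and *Klk6* at the lower left. For *Gm13187*, *9630013A20Rik*, *Art3* and *Hmcn1* the naming rule required the same direction in both libraries.

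Genes of the mature myelin sheath did not all lie on the same side. *Opalin* stood at 478 CPM in WT and 346 CPM in HET in subcluster 7, against 204 and 146 CPM in the other oligodendrocytes, log2 ratios of 1.23 (1.07 to 1.40) and 1.24 (1.11 to 1.38). *Tspan2*, a myelin tetraspanin gene, stood at 528 and 678 CPM against 315 and 375 CPM. *Anln* went the other way, at 188 and 249 CPM against 450 and 598 CPM, with a log2 ratio of −1.26 in each library. Subcluster 7 was thus higher for *Opalin* and *Tspan2* and lower for *Anln* than the pooled other oligodendrocytes in both libraries. Subclusters 6 and 8 did not share in this contrast to that size. Of the 39 myelin genes, 0 differed at least 2-fold between the larger part and subcluster 6 in HET or subcluster 8 in WT. After thinning, 25.8% of the larger part, 25.4% of subcluster 6 and 3.47% of subcluster 2 had an *Opalin* UMI in HET. In WT the shares were 33.6% in the larger part, 30.2% in subcluster 8 and 5.65% in subcluster 2. *Hapln2*, which encodes a link protein of the matrix at nodes of Ranvier, stood at 256 and 214 CPM against 575 and 394 CPM. Other genes of the sheath differed little, with log2 ratios in HET of −0.09 for *Mbp*, 0.12 for *Mobp* and 0.28 for *Cnp*. Over the 39 myelin genes in the table, the median was 0.10 (0.00 to 0.19, the medians of the genes' bounds) in HET and 0.05 (−0.07 to 0.16) in WT. In HET 25 were higher and 14 lower, and *Opalin* and *Anln* were the ones past 2-fold. The transcription factors of the lineage had medians of 0.30 in HET and 0.20 in WT over 14 genes, and *Sox10* and *Myrf*, which drive myelin gene transcription, had log2 ratios of −0.03 and 0.34 in HET.

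Genes that mark other mature states set subcluster 7 apart from subcluster 2. In the larger part *Klk6* stood at 30.9 and 22.0 CPM and in the smaller part at 15.2 and 19.3 CPM, in WT and HET in turn, against 167 and 123 CPM in subcluster 2. *Il33*, which encodes a nuclear cytokine of the interleukin-1 family, was high in both parts, at 466 and 329 CPM in the larger and 300 and 173 CPM in the smaller part, against 41.2 and 17.4 CPM in subcluster 2. These are differences of several fold in both libraries. *Enpp6*, a choline phosphodiesterase gene, stood at 436 and 469 CPM in subcluster 2 and at 118 and 93.7 CPM in subcluster 7, with a log2 ratio of −1.71 (−1.90 to −1.53) against the other oligodendrocytes in HET and −1.22 (−1.51 to −0.93) in WT. Low *Enpp6* and *Klk6* were not particular to subcluster 7. After thinning, 6.89% of subcluster 7, 6.72% of subcluster 6 and 36.6% of subcluster 2 had an *Enpp6* UMI in HET. In WT the share was 9.49% in subcluster 7, 33.8% in subcluster 2 and lower than both in subcluster 8. For *Klk6* it was 2.13% in subcluster 7 and 2.58% in subcluster 6 in HET, and 2.63% in subcluster 7 and 3.98% in subcluster 8 in WT. Over the 10 genes listed for the *Klk6* type of mature cell, the median was −0.45 (−1.20 to 0.03) in HET and −0.50 in WT, with 4 genes at least 2-fold lower in each. Over the genes listed for the *Ptgds* type, which include *Il33*, the median was 0.34 (0.21 to 0.43) in HET and 0.05 in WT. *Grm7*, a metabotropic glutamate receptor gene, stood at 2429 and 2587 CPM in the larger part, against 746 and 878 CPM in the smaller part and 572 and 534 CPM in subcluster 2, so it separated the larger part from both.

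The lowest ratios were those of *Gm20631*, *Art3*, *6030407O03Rik*, *Hmcn1*, *Gm16193*, *Gm32122*, *Lmo7*, *Bace2*, *Dlc1*, *A530053G22Rik*, *Shcbp1l* and *Sdk2*. *Art3*, of the ADP-ribosyltransferase family, stood at 8.80 CPM in WT and 1.33 CPM in HET, from 8 and 4 UMIs, against 105 and 69.7 CPM in subcluster 2. *Hmcn1* stood at 15.4 and 3.34 CPM against 149 and 85.7 CPM. Few nuclei of subcluster 2 had a *Hmcn1* UMI, 7.29% in WT and 4.18% in HET, or 4.56% and 2.79% after thinning, against 1.13% of neurons after thinning in each library. *Lmo7*, a LIM domain gene, had log2 ratios of −2.62 in WT and −3.75 (−4.64 to −2.98) in HET, and *Bace2*, an aspartyl protease gene related to beta-secretase, of −2.30 and −3.17 (−4.26 to −2.25). *Dlc1*, which encodes a GTPase-activating protein, stood at 85.8 and 31.7 CPM against 375 and 451 CPM, with log2 ratios against all other oligodendrocytes of −1.34 in WT and −3.16 (−3.48 to −2.86) in HET. *Hmcn1* and *Dlc1* were low in subclusters 6 and 8 as well, at 2.60 and 47.8 CPM in HET subcluster 6 and at 1.89 and 16.1 CPM in WT subcluster 8, so for both genes subcluster 2 was the high group. *Gm20631* overlaps *Hmcn1* on the opposite strand and *Gm16193* overlaps *Mtus1*. Whether the counting used strand is not given, so reads of such pairs may be shared.

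The highest ratios were those of *Gm13187*, *9630013A20Rik*, *Ppfibp1*, *Synpr*, *Kank1*, *Sox6*, *Tnr*, *Vcan*, *Ptpro*, *Gm5087*, *Man1a* and *Ust*. In HET their log2 ratios ran from 2.30 (2.06 to 2.56) for *Ust* to 4.27 (3.75 to 4.82) for *Gm13187*. *Tnr* stood at 205 CPM in WT and 289 CPM in HET against 34.5 and 47.9 CPM in the other oligodendrocytes, with log2 ratios of 2.57 (2.26 to 2.88) and 2.59 (2.38 to 2.81). It had a UMI in 18.8% and 15.3% of nuclei of subcluster 7, or 6.95% and 6.35% after thinning. Neurons were richer in it, at 66.4% and 76.2%, or 19.2% and 24.9% after thinning. In the smaller part 5 WT nuclei held 124 of 140 *Tnr* UMIs and 18 HET nuclei held 651 of 661. Their median doublet scores lay above those of the smaller part, 0.169 in WT and 0.0572 in HET. Their part in the *Tnr* ratios was not tested. *Kank1* stood at 88.0 and 70.1 CPM against 7.30 and 10.2 CPM in the other oligodendrocytes. Both genes were several fold higher in each library. The naming rule chose them by the size of their ratio in HET. In WT it fixed the direction but not the size. *9630013A20Rik* is a noncoding transcript on the minus strand of chr14:84458639-84476424 (mm10), inside *Pcdh17*, a protocadherin gene. *Pcdh17* itself had log2 ratios of 2.33 in WT and 2.14 in HET, so part of either value may belong to the other gene. *Gm13187*, a processed transcript at chr2:4287595-4301167, lies within *Frmd4a* on the other strand. *Gm5087*, on the minus strand at chr14:13157388-13284638, starts next to the start of *Synpr*, on the plus strand at chr14:13284780-13616340. *Kank1*, whose product regulates actin, lies at chr19:25236975-25434496, and *Tnr* at chr1:159523769-159931729.

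The promoters of the highest genes were read from RefSeq (GRCm38.p6, 250 bases before to 50 after a start), which held 17 promoters for 11 of these 12 genes. They are shown because these genes were the highest ones in subcluster 7 and *Sox6*, a transcription factor that keeps precursors from differentiating, is among them. Sox factors bind sites with the core ACAAAG, or CTTTGT on the other strand. This core was found in 7 of the 17 promoters (41.2%), against 6147 of all 32851 promoters (18.7%). Of the 7, 5 were starts of *Sox6* itself, so 41.2% cannot be read as an enrichment across these genes. The other 2 were those of *Kank1* (chr19:25236725-25237024, plus strand) and *Tnr* (chr1:159523519-159523818, plus strand). The promoter of *9630013A20Rik* (chr14:84476375-84476674, minus strand) held no copy. The core is in capitals, and a match is a description and not a shown binding site.
*9630013A20Rik*: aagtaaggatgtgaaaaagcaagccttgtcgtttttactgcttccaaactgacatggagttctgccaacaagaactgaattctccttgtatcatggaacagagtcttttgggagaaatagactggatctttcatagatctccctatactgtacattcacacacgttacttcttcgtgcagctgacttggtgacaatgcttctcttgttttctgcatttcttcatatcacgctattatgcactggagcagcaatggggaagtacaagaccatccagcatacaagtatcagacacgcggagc
*Kank1*: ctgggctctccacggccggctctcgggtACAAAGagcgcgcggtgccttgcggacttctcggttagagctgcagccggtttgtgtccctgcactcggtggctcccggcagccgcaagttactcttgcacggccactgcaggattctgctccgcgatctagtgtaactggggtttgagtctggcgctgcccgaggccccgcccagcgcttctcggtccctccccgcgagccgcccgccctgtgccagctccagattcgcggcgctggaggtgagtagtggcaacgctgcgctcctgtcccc
*Tnr*: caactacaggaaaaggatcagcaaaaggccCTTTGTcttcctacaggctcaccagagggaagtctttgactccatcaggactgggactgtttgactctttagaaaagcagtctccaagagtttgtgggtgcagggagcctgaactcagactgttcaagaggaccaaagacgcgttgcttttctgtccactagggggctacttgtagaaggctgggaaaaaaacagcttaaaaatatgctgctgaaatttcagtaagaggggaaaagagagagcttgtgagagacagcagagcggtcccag

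All 12 of these genes had a higher level in the smaller than in the larger part in both libraries. They had been chosen as the highest in subcluster 7 from these same nuclei, so this count is a description only. The share of all genes that were higher in the smaller part was not counted. *Kirrel3*, outside the 12, stood at 3203 CPM in WT and 3393 CPM in HET in the smaller part, 640 and 834 CPM in the larger part and 81.3 and 107 CPM in subcluster 2. *Synpr* followed the same order, at 1415 and 1216 CPM, then 125 and 157 CPM, then 14.7 and 12.2 CPM. *Kank1* stood at 255 and 262 CPM in the smaller part, against 20.1 and 14.2 CPM in the larger part. For all 3 genes the intervals of the smaller part lay above those of every other group drawn, in both libraries. *Kirrel3* and *Synpr* were spread over the smaller part. *Synpr* had a UMI in 85.7% of WT and 84.9% of HET nuclei there, or 64.7% and 58.4% after thinning, against 23.8% and 27.2% of neurons, or 6.15% and 7.48% after thinning. *Kirrel3* had a UMI in 98.0% and 97.8% of them, but astrocytes, at 87.0% and 92.5%, were also rich in it. *Ust*, which encodes a sulfotransferase of chondroitin and dermatan sulfate chains, stood at 460 and 535 CPM against 71.2 and 72.8 CPM in the larger part. *Ptpro*, a receptor tyrosine phosphatase gene, stood at 114 and 108 CPM against 9.28 and 9.04 CPM, and *Ppfibp1*, which encodes a liprin, at 91.3 and 129 CPM against 12.4 and 22.0 CPM. *Man1a*, a mannosidase gene of glycoprotein processing, stood at 540 and 626 CPM against 54.1 and 50.4 CPM. In HET, 130 of 4491 genes (2.89%) were at least 2-fold higher in the smaller than in the larger part and 289 (6.44%) at least 2-fold lower, beside a median of −0.15 over all of them. Among the lower ones, *Hapln2* stood at 60.9 CPM in WT and 53.3 CPM in HET in the smaller part, against 336 and 261 CPM in the larger, and *Anln* at 57.1 and 26.7 CPM against 241 and 313 CPM.

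**Figure D3:**
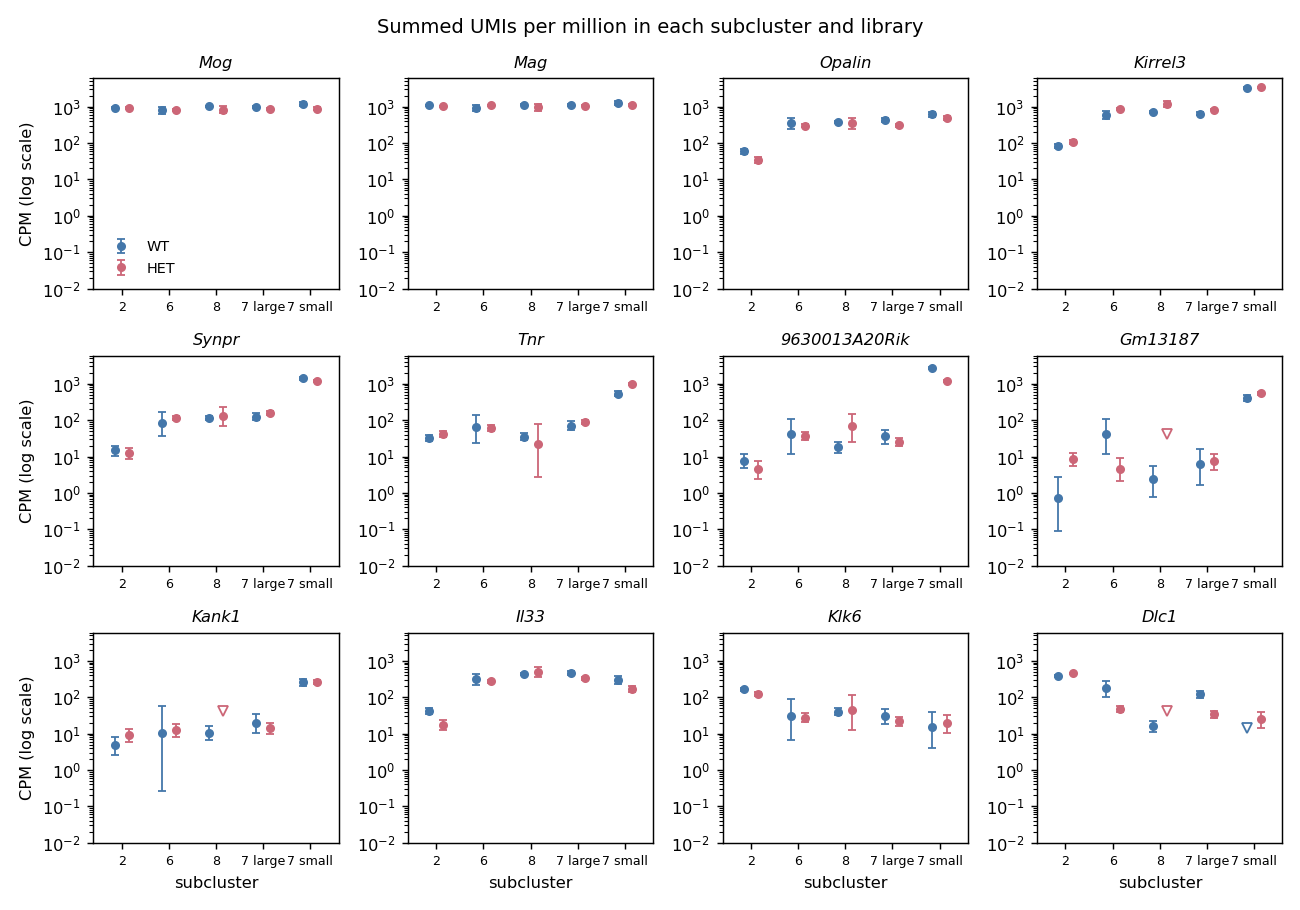
Points give the CPM (log axis) of 12 genes in subclusters 2, 6 and 8 and in the larger and smaller parts of subcluster 7 (7 large, 7 small), in WT (blue) and HET (red), with exact 95% counting intervals, and open triangles mark groups with 0 UMIs at their upper bound. *Mog* and *Mag* are level across the groups, *Opalin* and *Il33* separate subcluster 2 from the others, and *Kirrel3*, *Synpr*, *Tnr*, *9630013A20Rik*, *Gm13187* and *Kank1* are highest in the smaller part.

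A small set of nuclei held most UMIs of *9630013A20Rik*, which is on the list for the newly formed stage. *9630013A20Rik* stood at 2742 CPM in WT and 1203 CPM in HET in the smaller part, against 35.6 and 25.0 CPM in the larger part. It had a UMI in 22 of 49 WT nuclei and 48 of 139 HET nuclei of the smaller part, but 9 WT nuclei and 14 HET nuclei with at least 10 UMIs held 680 of 721 and 728 of 812 UMIs. In neurons 18.9% and 28.5% of nuclei had a UMI, and after thinning 2.87% and 4.68%, against 29.4% and 19.1% in the smaller part. No other oligodendrocyte nucleus of either library reached 10 UMIs. All 23 had the oligodendrocyte reference label. Their median depths were 8330 UMIs in WT and 5942 in HET, against 4308 and 4493 in the other 40 and 125 nuclei of the smaller part, and their median doublet scores were 0.222 and 0.154 against 0.163 and 0.0460. The part of depth and doublets in what follows was not tested.

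These 23 nuclei, chosen by *9630013A20Rik* after its values had been seen, differed widely from the other nuclei of the smaller part in genes that did not choose them. *Tcf7l2*, a transcription factor gene of the Wnt pathway, stood at 1003 CPM in WT and 2040 CPM in HET, against 78.8 and 75.3 CPM, log2 ratios of 3.67 (2.86 to 4.57) and 4.76 (4.28 to 5.27). *Enpp6* stood at 401 and 472 CPM against 73.9 and 77.0 CPM, and *Itpr2*, an intracellular calcium channel gene, at 552 and 760 CPM against 49.2 and 99.8 CPM. *Rras2*, a small GTPase gene, stood at 686 and 423 CPM against 9.85 and 10.5 CPM, and *Cnksr3* at 1037 and 1424 CPM against 39.4 and 50.8 CPM. The intervals of these log2 ratios lay above 0 in both libraries, but they cover counting error alone and not the spread between the 23 nuclei. *Fyn*, a kinase gene of early myelination, had log2 ratios of 1.73 and 1.29, *Tns3* of 2.82 and 2.63 and *Sema5a* of 3.87 and 3.27. *Gm13187* stood at 1572 and 2820 CPM against 54.2 and 138 CPM. *Tnr* stood at 1338 and 2637 CPM against 295 and 677 CPM. Genes of the later sheath were lower. *Mal*, a myelin membrane protein gene, stood at 234 and 125 CPM against 960 and 870 CPM, *Opalin* at 318 and 192 CPM against 699 and 537 CPM, and *Trf*, the transferrin gene, had log2 ratios of −1.68 and −0.97. *Mbp* and *Mag* were not lower, with log2 ratios of 0.37 and 0.21 for *Mbp* and of 0.29 and 0.01 for *Mag*. *Kirrel3* and *Synpr* had ratios of 0.59 and 0.11 and of −0.34 and −0.60, so they marked the whole smaller part. Of the other 16 measured genes on the newly formed list, 10 had intervals above 0 in both libraries. The share of all genes with such intervals was not counted, and a gene of this list chose the nuclei, so 10 of 16 is a description only. The list genes without such intervals were *Gpr17*, *Bmp4*, *Neu4*, *Slc12a2*, *Arhgef3* and *Casr*. *Gpr17* stood at 16.7 CPM against 39.4 CPM in WT, from 1 and 8 UMIs, a log2 ratio of −1.24 (−6.71 to 1.66), and at 48.1 CPM against 54.3 CPM in HET, a ratio of −0.17 (−1.89 to 1.20).

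*Prom1*, the gene of the membrane glycoprotein prominin-1, was singled out after its values were seen. In subcluster 7 it had 50 WT and 75 HET UMIs, against 4 and 5 in all other oligodendrocytes, log2 ratios of 6.08 (4.64 to 8.01) and 4.61 (3.33 to 6.28). It had a UMI in 24.5% of WT and 19.4% of HET nuclei of the smaller part, in 1.19% and 0.677% of the larger part and in 1.41% and 2.19% of neurons. *Prom1* was higher in the nuclei rich in *9630013A20Rik*, at 635 and 433 CPM, but was not limited to them, with 44.3 and 45.5 CPM in the other nuclei of the smaller part.

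Lists of genes for the stages of the lineage were read next. Of 18 genes listed for newly formed oligodendrocytes, 16 had at least 20 UMIs in HET, and their median against the other oligodendrocytes was 1.26 (0.85 to 1.65), with 10 at least 2-fold higher and 2, *Enpp6* and *Sema5a*, at least 2-fold lower. In WT the median was 1.43 (0.97 to 1.81). The list, which holds *9630013A20Rik*, had a median of 2.74 in the smaller part and 0.19 in the larger part, and of 0.61 (0.07 to 0.97) in the whole subcluster without the 23 nuclei. *Itpr2* had log2 ratios of 1.98 in WT and 2.10 in HET in subcluster 7, and *Tcf7l2* of 1.74 and 1.44. *Gpr17*, a receptor gene of the stage, had 12 WT and 51 HET UMIs and ratios of 2.22 (0.97 to 3.44) and 2.13 (1.35 to 2.97). Of the smaller part, 12.2% and 13.7% of nuclei had a *Gpr17* UMI, or 3.94% and 4.34% after thinning, against 1.05% and 0.927% of neurons, or 0.139% and 0.119% after thinning. The sum of UMIs over the list, which is led by its most abundant genes, had a log2 ratio of 0.36 in HET.

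The 16 precursor genes had a median of 0.85 (0.52 to 1.13) in HET and 0.68 (0.43 to 1.00) in WT, with 13 higher and 3 lower in HET and 8 of them at least 2-fold higher. The genes that define precursors were low and did not move together. *Cspg4*, the NG2 proteoglycan gene, stood at 9.90 CPM in WT and 9.34 CPM in HET, with log2 ratios of 0.25 (−0.97 to 1.31) and 0.02 (−0.71 to 0.73). *Pdgfra*, the receptor gene for platelet-derived growth factor, stood at 25.3 and 12.3 CPM from 23 and 37 UMIs, with ratios of 1.64 and 1.16, and had a UMI in 6.77% and 1.64% of nuclei, against 2.02% and 1.47% of neurons. After thinning the shares were 1.22% and 0.434%, against 0.284% and 0.213% of neurons. *Vcan*, the versican gene, stood at 29.7 and 36.7 CPM, and *Sox6* at 85.8 and 76.4 CPM. Some of these UMIs came from few, deep nuclei. In the larger part of HET, 5 nuclei held 112 of 204 *Tnr* UMIs and 3 nuclei held 37 of 58 *Vcan* UMIs, both sets with a median of 17029 UMIs and doublet scores of 0.342 and 0.332. With nuclei weighted equally the precursor median in HET was 0.30, and at 3000 to 6000 UMIs it was 0.22.

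The larger part was set against subcluster 6 in HET and against subcluster 8 in WT. How near the subclusters lie to each other was not measured. In HET, 7 of 5967 genes (0.117%) were at least 2-fold higher in the larger part than in subcluster 6 and 9 (0.151%) at least 2-fold lower, with a median of −0.01. *Opalin* stood at 306 CPM against 302 CPM, *Kirrel3* at 834 against 859 CPM, *Il33* at 329 against 275 CPM and *Grm7* at 2587 against 1980 CPM. In WT, 44 of 4690 genes (0.938%) were at least 2-fold higher in the larger part than in subcluster 8 and 281 (5.99%) at least 2-fold lower, with a median of 0.01. There *Opalin* stood at 424 against 384 CPM, *Kirrel3* at 640 against 707 CPM and *Il33* at 466 against 425 CPM. *Opalin*, *Kirrel3* and *Il33*, which separate these nuclei from subcluster 2, were thus closer to level here. Depth did separate them, since the median nucleus had 3228 UMIs in the larger part and 2241 in subcluster 6 in HET, and 4744 in the larger part and 2356 in subcluster 8 in WT. Limited to nuclei of at most 10000 UMIs, 1 of 5689 genes was higher and 7 were lower in HET. In WT 7 of 4207 genes were higher and 177 lower. At 3000 to 6000 UMIs, where subcluster 6 kept 49 nuclei, 39 of 2211 genes were higher and 6 lower in HET, and in WT 2 of 1283 were higher and 13 lower.

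Genes of the ribosome and of the respiratory chain were lower in subcluster 7. The median over 80 ribosomal protein genes was −0.34 (−0.62 to −0.05) in HET, with 76 of 80 lower, and −0.79 (−1.23 to −0.39) in WT, with 80 of 80 lower. Over 86 genes of oxidative phosphorylation it was −0.28 in HET and −0.74 in WT. Over all genes with at least 100 UMIs the medians were −0.07 in HET and −0.08 in WT. The share of all genes that were lower was not counted, here or for the other lists. The larger part was lower too, with ribosomal medians of −0.51 against subcluster 6 in HET and −1.12 against subcluster 8 in WT. These levels moved with depth in every group. In the larger part of HET the summed ribosomal level was 5699 CPM in nuclei under 3000 UMIs, 4684 CPM at 3000 to 6000 and 2631 CPM above 6000. Subcluster 2 of HET gave 5741, 4435 and 2988 CPM in the same bands. At 3000 to 6000 UMIs the median over the ribosomal genes in HET was −0.03 against the other oligodendrocytes, where the larger part stood at 4684 CPM, subcluster 6 at 5226 CPM and subcluster 2 at 4435 CPM. In the same band of WT both parts of subcluster 7 stayed below the others, with 6849 CPM in the larger and 6869 CPM in the smaller part, against 7330 CPM in subcluster 2 and 9733 CPM in subcluster 8.

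**Figure D4:**
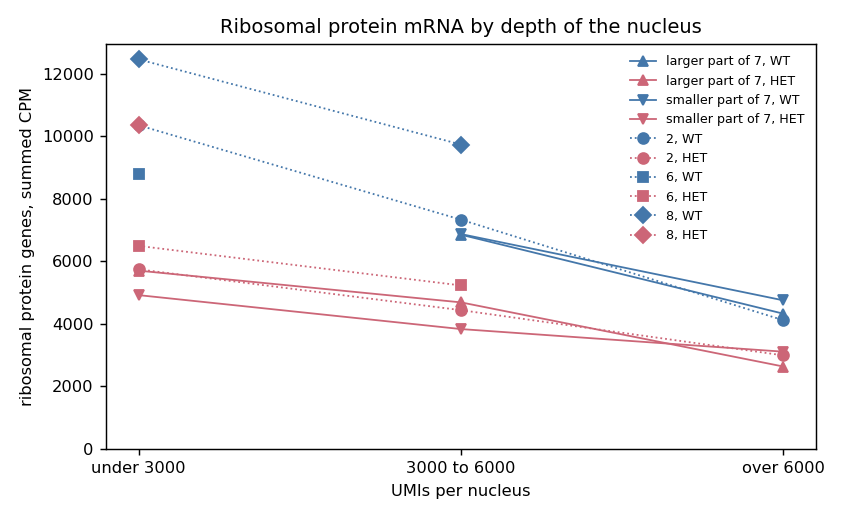
Points give the summed CPM of the ribosomal protein genes in nuclei under 3000, of 3000 to 6000 and over 6000 UMIs, for the larger and smaller parts of subcluster 7 (solid lines) and for subclusters 2, 6 and 8 (dotted lines), in WT (blue) and HET (red), where a band held at least 10 nuclei. The level falls with depth in each group with several bands, and within a band each group lies lower in HET than in WT where both are drawn.

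Other groups of genes were read by their medians. The median over 37 genes of axon contact and adhesion was 0.13 in HET and 0.06 in WT, with 1 and 5 of the genes at least 2-fold higher, that over 35 ion channel and transporter genes 0.03 and −0.02, and that over 26 cholesterol synthesis genes −0.19 (−0.58 to 0.12) and −0.04. Glutamate receptor genes had medians of 0.08 and 0.20, and their sums had log2 ratios of 0.52 and 0.50. Heat shock and ubiquitin genes had medians of −0.17, with 13 of 14 lower in HET, and −0.43, with 14 of 15 lower in WT. *Kirrel3*, among the adhesion genes, was the member furthest from 0 in both libraries, with log2 ratios of 1.94 (1.84 to 2.05) in WT and 1.73 (1.66 to 1.81) in HET.

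The second question was how HET differed from WT within subcluster 7. *Scn1a* itself was sparse in these nuclei, with 44 WT and 199 HET UMIs, or 48.4 CPM (35.2 to 65.0) and 66.4 CPM (57.5 to 76.3), a log2 ratio of 0.46 (−0.02 to 0.96). A missense allele need not change the RNA level, so this is no check of the labels. *Sgk1*, a kinase gene induced by glucocorticoids, *Zbtb16*, a zinc finger transcription factor gene, and *Hist1h1e*, a linker histone gene, were higher in HET, and *Ttr*, the transthyretin gene of the choroid plexus, and *Pabpc1*, which encodes a poly(A)-binding protein, were lower. Of 5554 genes, 80 (1.44%) were at least 2-fold higher and 44 (0.792%) at least 2-fold lower, with a median of −0.06. In the other oligodendrocyte nuclei, 148 of 9411 (1.57%) were higher and 173 (1.84%) lower, with a median of −0.09. Limited to nuclei of at most 10000 UMIs, 130 genes were higher in subcluster 7, and without the nuclei of the highest doublet scores 137 were higher and 27 lower. The number of genes that entered changes with such limits, so these counts are not shares.

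The 12 highest ratios belonged to *Gm21698*, *Hist1h1e*, *Gm20069*, *Rbfox3*, *Sgk1*, *Zbtb16*, *4930555F03Rik*, *Gm48740*, *Zfp804b*, *Gm28319*, *Gm44866* and *Prss48*. *Sgk1* stood at 30.8 CPM in WT and at 117 CPM in HET within subcluster 7, a log2 ratio of 1.93 (1.37 to 2.54), beside 2.24 (1.92 to 2.58) in the other oligodendrocytes. A *Sgk1* UMI was found in 11.3% of WT and 30.5% of HET nuclei, or 2.78% and 10.1% after thinning. Neurons were at 44.4% and 53.8%, or 7.49% and 10.1% after thinning, and astrocytes at 2.91% and 6.82%, or 0.703% and 1.91% after thinning. *Zbtb16* stood at 35.2 and 130 CPM, a ratio of 1.89 (1.36 to 2.45) beside 1.78, and *Hist1h1e* at 9.90 and 42.0 CPM, a ratio of 2.09 (1.12 to 3.25) beside 1.90. *Sgk1*, *Zbtb16* and *Hist1h1e* were higher in HET inside and outside the subcluster. The naming rule required the same direction in subcluster 2, which is part of the other oligodendrocytes, so the shared direction is no finding. Whether the sizes differ was not tested. *Rbfox3*, which encodes the neuronal nuclear antigen NeuN, stood at 11.0 and 44.0 CPM, and the summed neuron markers at 643 and 879 CPM, with a median over 17 neuron genes of 0.39 (−0.40 to 1.13). Their part in the result was not tested. Of the rest, *Gm20069*, *Gm28319* and *Prss48* overlap *Itpk1*, *Tmeff2* and *Sh3d19*, and their reads may be shared.

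**Figure D5:**
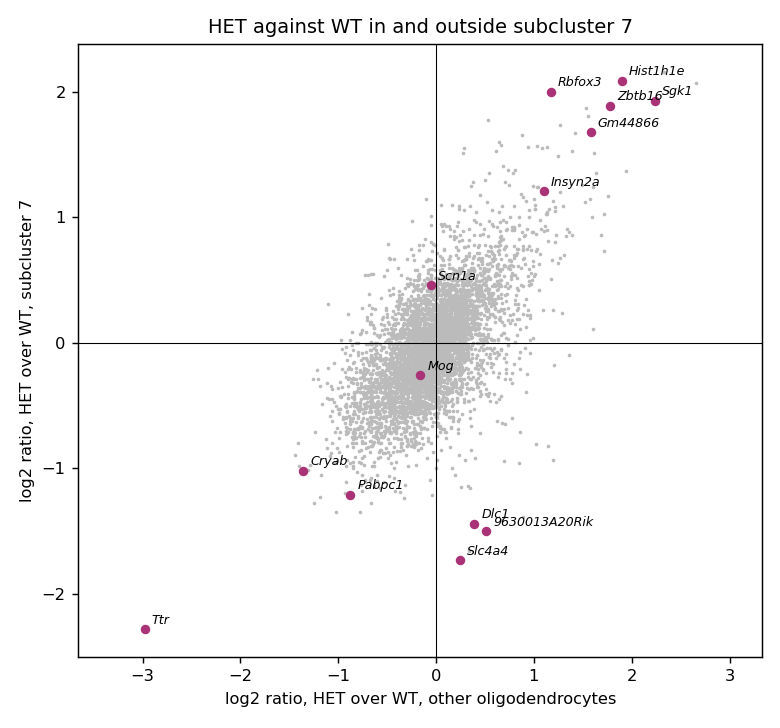
Each point is a gene with at least 100 UMIs in subcluster 7, with its log2 ratio of HET over WT in the other oligodendrocyte nuclei on the horizontal axis and in subcluster 7 on the vertical axis, and named genes are purple. *Sgk1*, *Zbtb16* and *Hist1h1e* lie at the upper right and *Ttr* at the lower left, while *9630013A20Rik*, *Dlc1* and *Slc4a4* lie at the lower right, with opposite directions in the 2 sets of nuclei.

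The 12 lowest ratios belonged to *Ttr*, *9630013A20Rik*, *Gpkow*, *BC031181*, *Abhd17a*, *Cdc42ep2*, *Slc7a6os*, *Gm20515*, *Pabpc1*, *Rap2a*, *Ptpn9* and *Vegfa*. *Ttr* stood at 348 CPM in WT and 71.4 CPM in HET. Its log2 ratio was −2.28 (−2.54 to −2.03), beside −2.98 in the other oligodendrocytes, where it stood at 780 and 98.8 CPM. The summed ependymal and choroid plexus genes, which include it, stood at 422 and 149 CPM in subcluster 7, and their part in the result was not tested. *Pabpc1* stood at 85.8 and 37.0 CPM, a ratio of −1.21 (−1.64 to −0.78), and *Vegfa*, an angiogenic growth factor gene, at 46.2 and 20.3 CPM, a ratio of −1.18 (−1.77 to −0.58). *9630013A20Rik* had a ratio of −1.50 (−1.64 to −1.35), which rested on the few rich nuclei and stood at −0.62 without them and at −0.31 without the highest doublet scores. *Slc4a4*, a bicarbonate transporter gene of astrocytes that was named after its values were seen, stood at 141 and 42.4 CPM, and of its 128 WT UMIs 75 lay in 2 nuclei of the larger part, with a median of 34408 UMIs, and 21 in 1 nucleus of the smaller part. *Dlc1*, lower in HET in subcluster 7 and named above, had 69.2% of its 78 WT UMIs in 5 nuclei.

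Of the genes that the study had chosen on these samples as higher in HET, 21 were in the table, and all 21 were higher in subcluster 7, with a median of 0.59 (0.39 to 0.71). This is no independent evidence of their direction. *Insyn2a*, an inhibitory synapse gene, was the member past 2-fold, with 145 CPM in WT, 335 CPM in HET and a log2 ratio of 1.21 (0.94 to 1.48). The same list had a median of 0.51 in the other oligodendrocytes. Summed over its genes, the list had a log2 ratio of 0.30. Of 34 genes chosen by the study as lower, 33 were lower, with a median of −0.49 (−0.77 to −0.21) beside −0.85 in the other oligodendrocytes, and *Ttr* was the member past 2-fold.

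The myelin genes had a median of 0.04 (−0.15 to 0.24), and *Cryab*, a small heat shock protein gene on that list, was the member past 2-fold, at 191 and 94.1 CPM, a log2 ratio of −1.02 (−1.30 to −0.74). *Mog* had a ratio of −0.26 and *Mag* of −0.11. The newly formed and precursor lists had medians of −0.08 and 0.15, both intervals spanning 0. The 80 ribosomal protein genes had a median of −0.35 (−0.79 to 0.12), with 69 lower, beside −0.77 with 79 lower in the other oligodendrocytes, and oxidative phosphorylation had medians of −0.28 and −0.68. Gene length moved with these ratios. The genes with a known length, 5505 in subcluster 7 and 9311 in the other oligodendrocytes, were split in each set into 5 bins of equal size. From the shortest to the longest bin, the medians in subcluster 7 were −0.21, −0.12, −0.06, −0.01 and 0.02. In the other oligodendrocytes, whose bins hold more genes and have other limits, they were −0.41, −0.21, −0.11, −0.03 and 0.13. Depth moved with them as well, since HET nuclei of subcluster 7 were shallower than WT ones, whereas in the other oligodendrocytes the medians were close. The part of length and depth in these ratios was not tested.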

How the data were processed

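The authors deposited UMI counts per gene and nucleus, made with Cell Ranger on mm10 from 10x 3′ v3.1 libraries and filtered in Seurat 4.1. Mitochondrial, hemoglobin and some other genes had been removed. The deposited percent values (mitochondrial and ribosomal UMIs per nucleus), the doublet score from a caller not named and the clusters of the authors were used as deposited. Members, lists and the rule below were chosen with earlier results of these data known. Counts were summed over nuclei and scaled to CPM, with exact conditional binomial intervals for ratios. Genes with at least 100 UMIs in both sides together entered counts, and those with at least 20 entered list medians. A side with 0 UMIs was set to a floor of 3 counts. With 1 library per genotype no test was run.

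Named genes were the 12 highest and 12 lowest ratios with 1 direction in both libraries and against subcluster 2 (for HET against WT, in subclusters 7 and 2), the extreme and best known list members, and *Scn1a*, *Mog* and *Mag*. Others are said to be chosen later, and some items are not reported here. Positions came from GENCODE vM21, which gave 1 position for 24908 of 25556 genes. Neurons and astrocytes used as background carried that name in both deposited labels. The scripts, run with matplotlib 3.10.9, scipy 1.17.1, pandas 2.3.3 and numpy 2.4.6 in Python 3.11.15, were tested on simulated counts.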

Additional observations from a re-analysis of the deposited data

Results flagged for a closer look

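A pair of genes had opposite directions for HET against WT inside and outside subcluster 7. *9630013A20Rik* had a log2 ratio of −1.50 (−1.64 to −1.35) in subcluster 7 and of 0.51 (0.03 to 1.00) in the other oligodendrocyte nuclei, where it had few UMIs. The difference was not tested. *Dlc1* had a log2 ratio of −1.44 (−1.88 to −0.99) in subcluster 7, from 78 WT and 95 HET UMIs, and of 0.39 (0.27 to 0.50) in the others. This difference was not tested either. Of the 78 *Dlc1* UMIs of WT, 69.2% lay in 5 nuclei of the larger part.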

How the results depend on the processing

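No paired analysis was possible because each genotype had 1 library, and for the same reason none was left out. Values whose bounds span 0 did not all keep their sign. For HET against WT, *Scn1a* stood at −0.24, the neuron median at −0.38 and the myelin median at −0.04 in the smaller part, and the newly formed median at 0.04 in the larger part. Of 686 values of single named genes under the alternatives, 554 moved by less than their counting interval and 132 by more, most often in the smaller part alone or at 3000 to 6000 UMIs. The totals without ribosomal protein genes, the median-centred scaling and the reference label left every count, list median and share within these limits. The limits on nuclei of at most 10000 UMIs, of 3000 to 6000 UMIs, the larger and smaller parts alone and the nuclei poor in *9630013A20Rik* were added after seeing the data. The cause of the moves below was not tested, apart from the minimum counts, which change how many genes enter. That number also changes with the nuclei kept, so a lower count need not be a lower share.

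For subcluster 7 against the others in HET, the count of higher genes (112 of 8401) became 264 of 7142 against subcluster 2. It became 59 with nuclei weighted equally or thinned (both give the same ratios) and 1120 with no minimum count. It was 46 in the larger and 221 in the smaller part. The count of lower genes (146 of 8401) became 279 of 7142 against subcluster 2, 321 of 7602 in WT and 268 with the libraries pooled. It became 272 at a minimum of 50 UMIs, 97 at 200 UMIs, 1303 with none and 710 in the smaller part. The newly formed median (1.26) became 0.36 as a sum of UMIs, 0.60 at 3000 to 6000 UMIs, 0.61 without nuclei rich in *9630013A20Rik*, 0.19 in the larger and 2.74 in the smaller part. The precursor median (0.85) became 1.20 against subcluster 2, 0.30 with nuclei weighted equally or thinned, 0.40 at no more than 10000 UMIs and 0.22 at 3000 to 6000. The ribosomal median (−0.34) became −0.79 in WT, −0.67 pooled and −0.03 at 3000 to 6000 UMIs.

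For HET against WT, the count of higher genes (80 of 5554) became 137 without the 5% highest doublet scores. It became 133 with nuclei weighted equally or thinned and 130 at no more than 10000 UMIs. At a minimum of 50 UMIs it was 189, at 200 UMIs 30 and with none 1025. In the smaller part it was 34 of 1350. The count of lower genes (44 of 5554) became 27 without the highest doublet scores and 28 at 3000 to 6000 UMIs. It became 162 at a minimum of 50 UMIs, 10 at 200 UMIs and 1900 with none. It was 25 of 4538 in the larger and 17 of 1350 in the smaller part. The median of the genes the study chose as higher (0.59) became 0.30 as a sum and 0.37 in the smaller part. The shares of 7.53% and 30.6% became 9.36% and 34.1% for nuclei of at least 2000 UMIs, 1.44% and 8.09% of all nuclei and 13.0% and 46.7% at 3000 to 6000 UMIs.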
